A study of Arabidopsis thaliana with 9 samples.

Results

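The genes described here are encoded by the mitochondrial genome of Arabidopsis thaliana. They were taken as every locus whose identifier begins with ATMG, the prefix of mitochondrial loci, and whose exon counts summed to at least 20 over 9 RNA-seq libraries. This gave 49 of the 162 mitochondrial loci counted, among 37869 loci in all. Of the other mitochondrial loci, 61 had no exon count and 52 had 1 to 19. At the edge of this rule, the lowest member had 20 counts and the highest locus left out had 19, and 8 members had 20 to 39 counts.

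The libraries came from poly(A)-selected RNA of whole seedlings, 12 days old, raised on half-strength Murashige and Skoog plates in days of 16 h light and 8 h dark. The 3 genotypes were wild-type Col-0 and, in the same background, a pair of mutants named pp4r3a-1 and pp4r3a-2, each with 3 replicates. PP4R3A (AT3G06670) encodes a regulatory subunit of protein phosphatase 4, and the labels name each mutant by its allele alone, without saying what the lesion is. PP4R3A stood at 81.6 ± 1.74 exon counts per 1e6 exon counts (CPM; mean ± SD, n = 3, as for all means here) for Col-0, with 62.7 ± 3.40 CPM for pp4r3a-1 and 18.0 ± 0.378 CPM for pp4r3a-2.

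A plant mitochondrial genome encodes a small set of subunits of the respiratory complexes and the ATP synthase, proteins of cytochrome c maturation, some ribosomal proteins, ribosomal and transfer RNAs, and many open reading frames without a known product. All other mitochondrial proteins are made from nuclear genes and imported. Mitochondrial introns are group II introns, removed inside the organelle with the help of maturases and helicases and not by the spliceosome. In plant mitochondria a poly(A) tail marks a transcript for degradation and is not a feature of stable messages, so poly(A) selection takes up little mitochondrial RNA, and what it takes up need not mirror the steady-state pool.

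Names were limited by the annotation at hand. The TAIR10.1 annotation names mitochondrial genes without these identifiers, and ties an ATMG identifier to a name only through notes on nuclear copies of mitochondrial DNA on chromosome 2, and 20 of the 49 members could be paired with such a note, 15 of them with a named role. The other 29 are given by identifier alone. By the notes, named members comprised 4 ATP synthase subunits, 3 subunits of complex I (NADH dehydrogenase), 2 of complex III (the cytochrome bc1 complex), 2 of complex IV (cytochrome c oxidase), 3 ribosomal proteins and 1 factor of cytochrome c maturation. Among these, ATMG00590 of complex III and ATMG01280 of complex IV are noted only by likeness to a protein family or domain. Members without a name may belong to the same groups. A list of roles drawn up for this report, which this annotation could not check, is cited below as the unchecked list.

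Mitochondrial RNA was a minor part of every library. Exon counts per library ran from 20733294 to 27022497, of which the 49 members together held 5417 to 8761, or 0.0232% to 0.0423%. ATMG00020 with 27552 counts over the 9 libraries and ATMG01390 with 26609 held 86.1% of the 62939 member counts. The unchecked list puts both under ribosomal RNA, so the summed members are not to be read as messenger RNA. ATMG00030 followed with 3081 counts (4.90%), and 40 of the 49 members had a mean under 1 CPM. A floor of 3 counts, which covers counting error only, equalled 0.111 to 0.145 CPM, so most members lay within a few multiples of the smallest level that could be told from none.

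The summed members stood higher in each mutant than in Col-0 by means, at 242 ± 14.1 CPM for Col-0, 315 ± 23.1 CPM for pp4r3a-1 and 312 ± 98.1 CPM for pp4r3a-2. These means are 1.30 times and 1.29 times that of Col-0. The 3 pp4r3a-1 libraries, from 298 to 341 CPM, lay above the 3 Col-0 libraries, from 232 to 258 CPM. The pp4r3a-2 libraries, from 236 to 423 CPM, overlapped Col-0, and without pp4r3a-2 replicate 3 the ratio of pp4r3a-2 to Col-0 was 1.06. That library also had the highest share of chloroplast-encoded counts (0.962%, against 0.427% to 0.558% in the other 8) and of ribosomal RNA counts (0.503%, against 0.113% to 0.208%), and the part of this in the mitochondrial values was not tested. The ribosomal RNA loci are those typed so in the annotation, which names its mitochondrial genes without ATMG identifiers, so ATMG00020 and ATMG01390 are not among them. No test was made on the sum, since the members were chosen with results of these data known. In whole seedlings, a different number of cells of a type and a different amount of RNA per cell cannot be told apart.

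**Figure D1:**
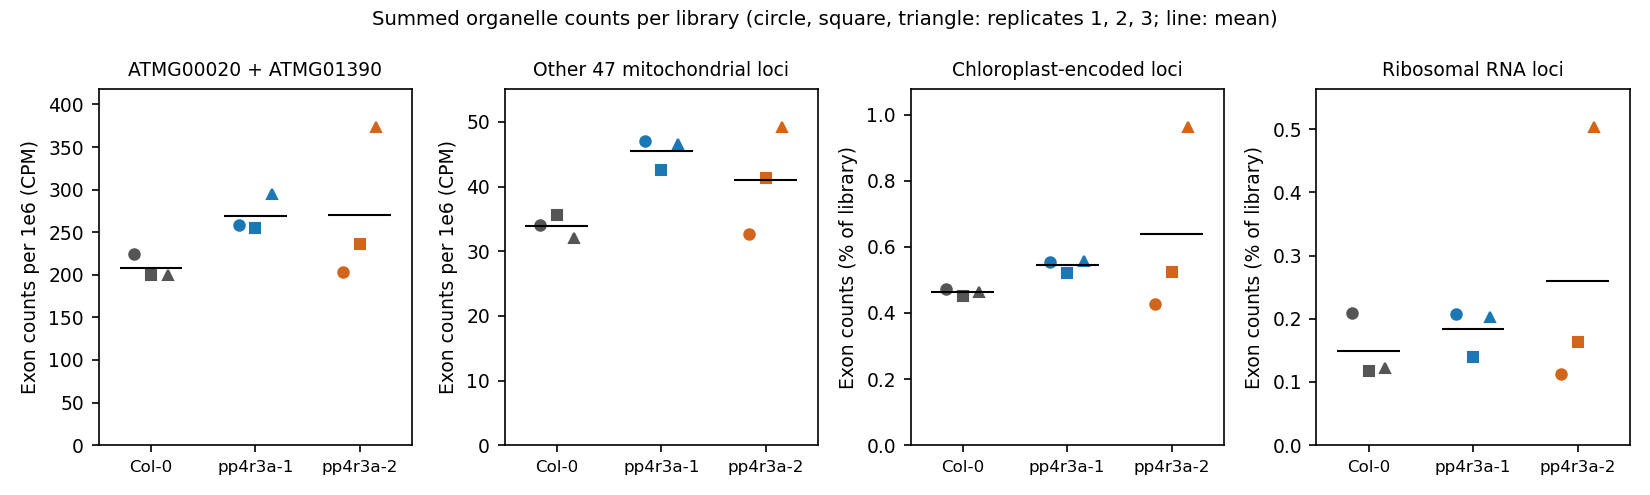
Summed exon counts per library (points, with replicates 1, 2 and 3 as circle, square and triangle; line, mean of 3) of ATMG00020 and ATMG01390, of the other 47 mitochondrial loci, of chloroplast-encoded loci and of ribosomal RNA loci, the first pair in CPM and the second pair in percent of the library's exon counts. The triangle of pp4r3a-2 is highest in each of the 4 panels, and the pp4r3a-1 points of both mitochondrial panels lie above those of Col-0.

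Individual loci were tested with edgeR's quasi-likelihood test over all 22631 genes that passed a filter on low counts (about 0.404 CPM in at least 3 libraries). The filter kept 30 of the 49 members and left out 19, whose counts summed to 20 to 77 and did not exceed 17 in any library. A member could pass through mutant libraries alone: ATMG00220, ATMG00290, ATMG00513 and ATMG00560 reached the filter's level in no Col-0 library, so a count over the members that passed is a description only.

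In pp4r3a-1, 12 of the 30 tested members were called higher than in Col-0 and 0 lower, at a Benjamini-Hochberg adjusted p under 0.05. Over all genes tested, 36.3% were called higher and 36.1% lower (72.4% either way), so the number of higher calls stood near the background, while 1 member of 30 had an unadjusted p under 0.05 in the lower direction. Most tested members had a mean under 1 CPM, where only large changes can be called. Their share of calls is therefore not compared like for like with that of all genes, in either mutant. The median log2 change was 0.50 over the tested members and -0.003 over all genes. Leaving out the 4 loci that passed only through mutants, 9 of 26 were called higher and 0 lower, with a median of 0.47. The nearest to a lower call was ATMG00690, with a log2 change of -0.64 and an edgeR adjusted p of 0.0522.

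In pp4r3a-2, 12 of 30 were called higher and 1 lower, against 35.6% higher and 35.8% lower over all genes (71.4% either way). The median log2 change was 0.56 over the tested members, against -0.001 over all genes. Of the loci called higher, 11 were so in each mutant, ATMG00520 only in pp4r3a-1 and ATMG01280 only in pp4r3a-2. These comparisons share the Col-0 libraries. Without pp4r3a-2 replicate 3, 7 loci were called higher in pp4r3a-2 and 0 lower: the calls of ATMG00070, ATMG00220, ATMG00510, ATMG00580, ATMG01280 and ATMG01330 were lost. DESeq2 called 7 higher and 0 lower.

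**Figure D2:**
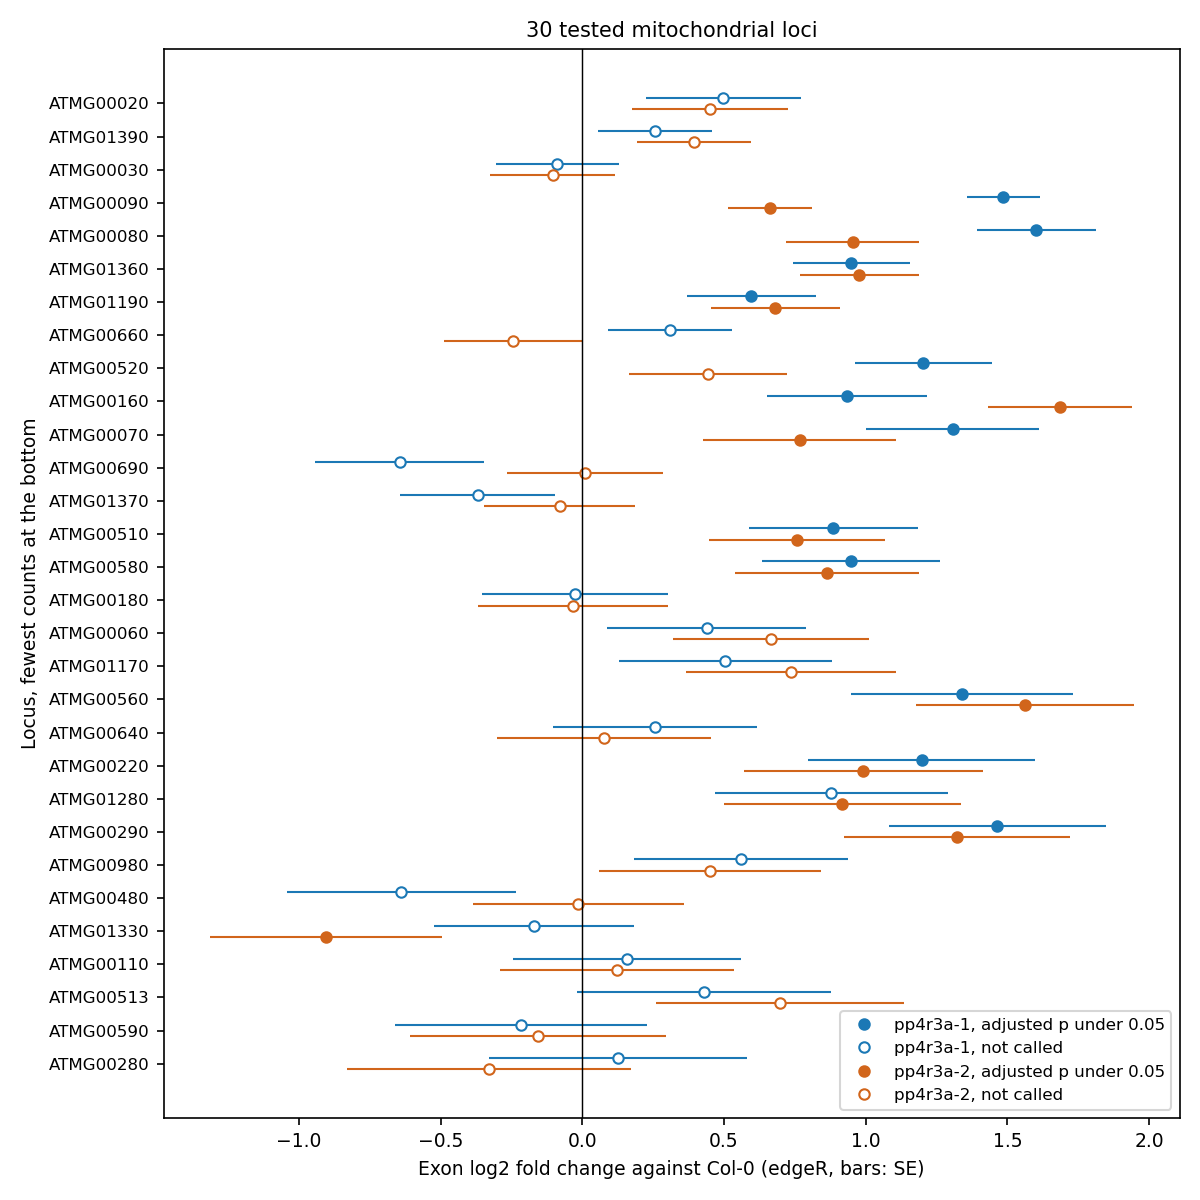
Exon log2 fold change against Col-0 (x axis; bars, SE from edgeR) of the 30 tested mitochondrial loci, ordered by total counts, in pp4r3a-1 (blue) and pp4r3a-2 (orange), filled where the adjusted p was under 0.05. Filled points stand right of 0 for 12 loci in each mutant, and left of 0 for ATMG01330 in pp4r3a-2.

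The 3 loci with the most counts passed the test in neither mutant. ATMG00020 stood at 109, 99.7 and 96.7 CPM in the Col-0 replicates, with 142, 134 and 154 CPM for pp4r3a-1 and 93.4, 117 and 196 CPM for pp4r3a-2. The pp4r3a-1 libraries all lay above Col-0, while pp4r3a-2 spanned the Col-0 range and more than pp4r3a-1's. Its log2 change was 0.50 (SE 0.27, edgeR adjusted p 0.148) in pp4r3a-1 and 0.45 (SE 0.27, edgeR adjusted p 0.186) in pp4r3a-2. ATMG01390 stood at 115, 100 and 103 CPM in the Col-0 replicates, with 117, 121 and 141 CPM for pp4r3a-1 and 110, 119 and 178 CPM for pp4r3a-2. Again pp4r3a-1 did not overlap Col-0, and pp4r3a-2 replicate 3 was the highest library. Its log2 changes were 0.26 (edgeR adjusted p 0.294) and 0.39 (edgeR adjusted p 0.126). Both loci passed the test in pp4r3a-1 when pp4r3a-2 replicate 3 was left out of the fit and when only pp4r3a-1 and Col-0 were fitted, and in each mutant with voom. ATMG00020 also passed in pp4r3a-2 without pp4r3a-2 replicate 1, at 0.67 (edgeR adjusted p 0.0482). ATMG00030 ranged from 10.3 to 16.2 CPM with overlap among all 3 genotypes, and had log2 values of -0.09 and -0.10 (edgeR adjusted p 0.737 and 0.698).

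Among loci with more than 200 counts, ATMG00090 and ATMG00080 were higher in each mutant, and more so in pp4r3a-1. ATMG00090 stood at 2.37, 2.38 and 2.18 CPM in the Col-0 replicates, with 6.14, 6.34 and 6.95 CPM for pp4r3a-1 and 2.93, 3.68 and 4.10 CPM for pp4r3a-2. The 3 genotypes did not overlap. Its log2 change was 1.49 (SE 0.13, edgeR adjusted p 8.01e-13) in pp4r3a-1 and 0.66 (SE 0.15, edgeR adjusted p 0.000156) in pp4r3a-2. ATMG00080 stood at 1.03, 0.936 and 0.814 CPM in the Col-0 replicates, with 2.63, 3.55 and 2.24 CPM for pp4r3a-1 and 1.26, 1.98 and 2.03 CPM for pp4r3a-2, in the same order without overlap. Its log2 change was 1.60 (SE 0.21, edgeR adjusted p 1.47e-08) in pp4r3a-1 and 0.95 (SE 0.23, edgeR adjusted p 0.000496) in pp4r3a-2.

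ATMG00160 went the other way between the alleles. It stood at 0.474, 0.468 and 0.514 CPM in the Col-0 replicates, with 0.962, 0.928 and 0.880 CPM for pp4r3a-1 and 1.30, 1.40 and 1.93 CPM for pp4r3a-2. Again no library overlapped another genotype, with pp4r3a-2 now the highest. The log2 change was 0.93 (SE 0.28, edgeR adjusted p 0.00357) in pp4r3a-1 and 1.69 (SE 0.25, edgeR adjusted p 3.26e-07) in pp4r3a-2. ATMG01360 was about equally high in the mutants, at 0.987, 1.01 and 0.942 CPM in the Col-0 replicates, with 1.78, 2.10 and 1.80 CPM for pp4r3a-1 and 1.80, 1.51 and 2.41 CPM for pp4r3a-2. Its log2 changes were 0.95 (SE 0.21) and 0.98 (SE 0.21), with edgeR adjusted p of 0.000112 and 9.66e-05. ATMG00080, ATMG00090, ATMG00160 and ATMG01360 were called higher in each mutant in all 18 refits other than the one scaled to the members' own counts.

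Between the mutants, 1 tested member was higher in pp4r3a-2 than in pp4r3a-1 and 4 were lower, against 24.2% and 23.7% over all genes (47.9% either way). The higher locus was ATMG00160, by a log2 difference of 0.75 (SE 0.22, edgeR adjusted p 0.00448). The lower loci were ATMG00090 with -0.82 (SE 0.12, edgeR adjusted p 3.80e-07), ATMG00520 with -0.76, ATMG00080 with -0.65 and ATMG00660 with -0.55 (edgeR adjusted p 0.0475). ATMG00520 stood at 0.750, 0.585 and 0.771 CPM in the Col-0 replicates, with 1.59, 1.57 and 1.67 CPM for pp4r3a-1 and 0.586, 0.891 and 1.35 CPM for pp4r3a-2. It was thus raised in each pp4r3a-1 library, while the pp4r3a-2 libraries ran from within the Col-0 range to near that of pp4r3a-1. ATMG00660 was called in 8 of 18 alternatives, and lost its call without any 1 Col-0 library, without pp4r3a-1 replicate 1 (-0.43, edgeR adjusted p 0.192) or 3, without pp4r3a-2 replicate 1 (-0.36, edgeR adjusted p 0.256) or 2, and with DESeq2. The call of ATMG00080 was lost without pp4r3a-1 replicate 2 (-0.46, edgeR adjusted p 0.0524). Without pp4r3a-2 replicate 1 only the ATMG00090 difference passed among the lower ones, and without pp4r3a-2 replicate 3 ATMG00160 had 0.57 (edgeR adjusted p 0.0501).

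**Figure D3:**
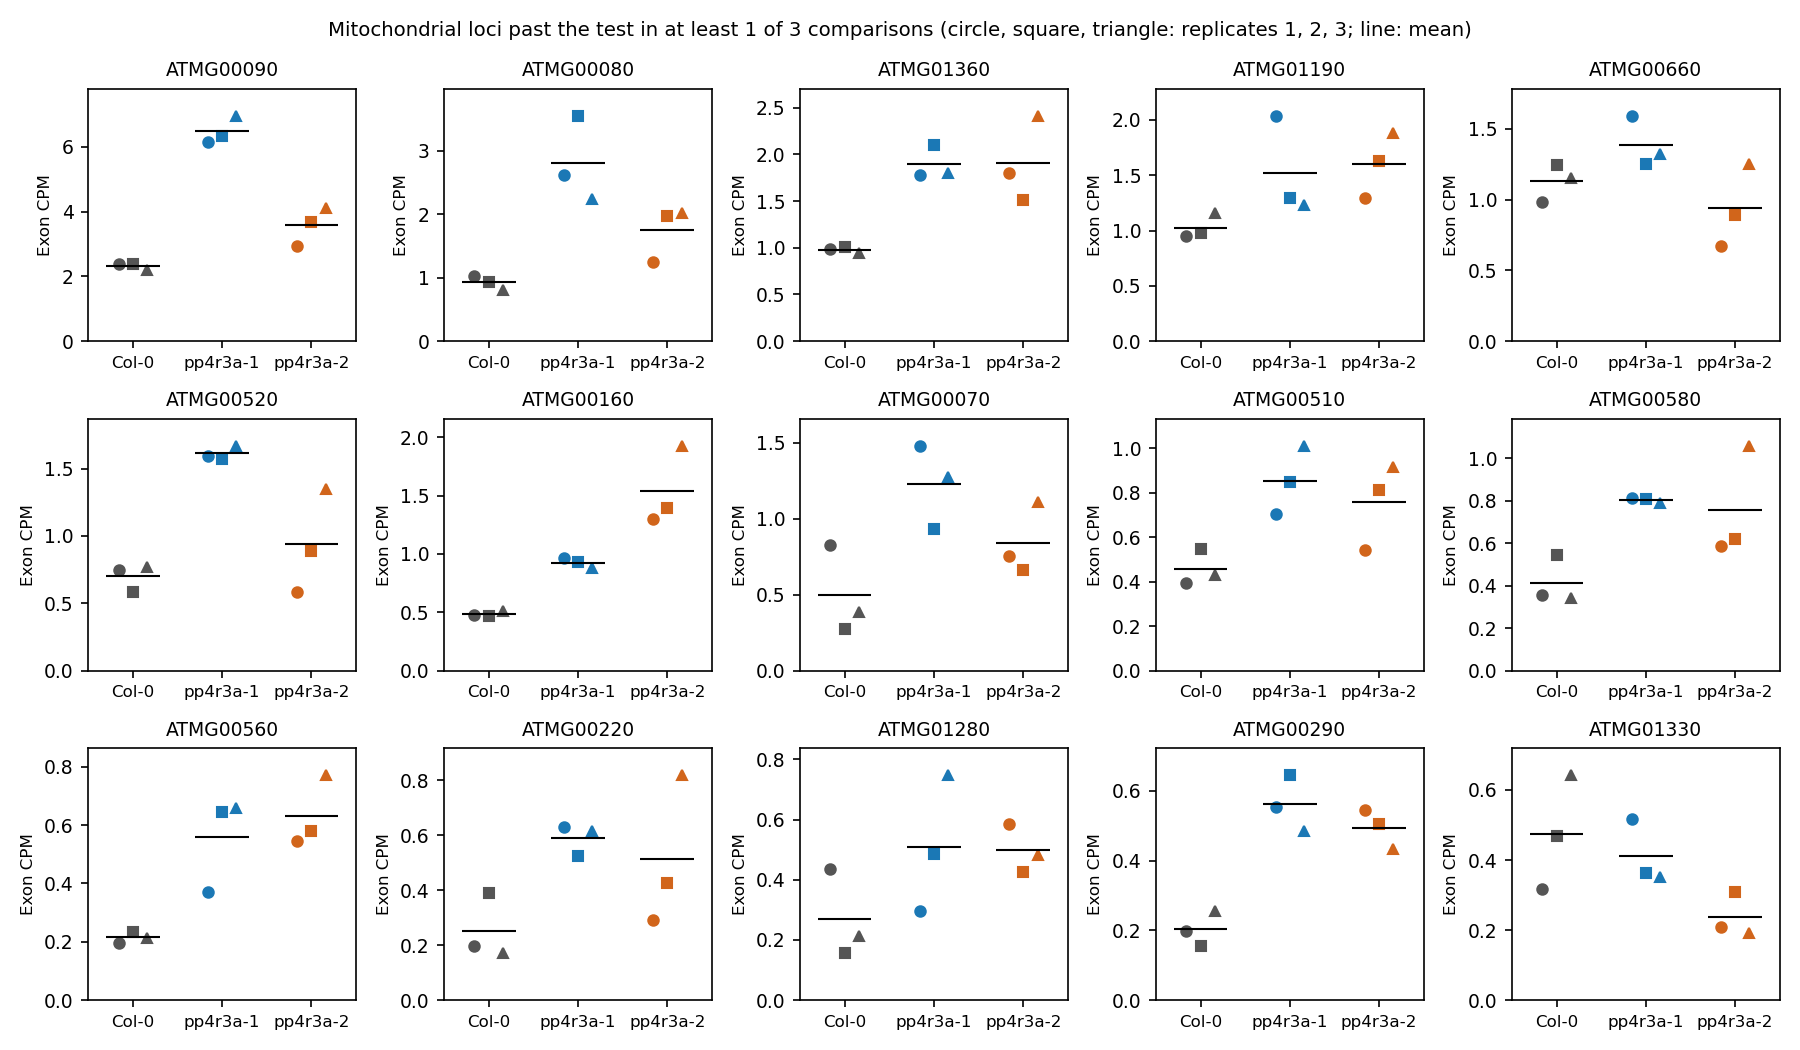
Exon CPM per library (points, with replicates 1, 2 and 3 as circle, square and triangle; line, mean of 3) of the 15 mitochondrial loci past the test in at least 1 of the 3 comparisons, each on its own axis from 0. ATMG00090, ATMG00080 and ATMG00160 separate the 3 genotypes without overlap, while the libraries of ATMG01280 overlap.

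Of the respiratory chain members with a name, none of complex I passed the filter. The unchecked list puts ATMG00060, ATMG00070, ATMG00510, ATMG00513 and ATMG00580, which have no name here, under complex I, and all were tested. ATMG00070, ATMG00510 and ATMG00580 were called higher in each mutant, as given below. The loci noted as NADH dehydrogenase 1A (ATMG01275), 3 (ATMG00990) and 2B (ATMG01320) had 20, 23 and 48 exon counts over the 9 libraries. In complex III, apocytochrome b (ATMG00220), the membrane subunit that holds the quinone-binding sites, stood at 0.197, 0.390 and 0.171 CPM in the Col-0 replicates, with 0.629, 0.525 and 0.616 CPM for pp4r3a-1 and 0.293, 0.426 and 0.820 CPM for pp4r3a-2. All pp4r3a-1 libraries exceeded Col-0, and pp4r3a-2 overlapped it. The log2 change was 1.20 (SE 0.40, edgeR adjusted p 0.00783) in pp4r3a-1 and 0.99 (SE 0.42, edgeR adjusted p 0.0351) in pp4r3a-2. The pp4r3a-2 call was lost without pp4r3a-2 replicate 3 (0.54), without Col-0 replicate 1 or 3, and with DESeq2. The other complex III entry, noted as a cytochrome b/b6 protein (ATMG00590), had log2 values of -0.22 and -0.16, neither past the test. The unchecked list does not hold ATMG00590 under complex III.

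In complex IV, the unchecked list holds ATMG00160 and ATMG01360, called higher in each mutant as given above, beside ATMG00730. It does not hold ATMG01280. By its note, ATMG01280 is like cytochrome c oxidase subunit II, and it was called in pp4r3a-2 alone. It stood at 0.434, 0.156 and 0.214 CPM in the Col-0 replicates, with 0.296, 0.484 and 0.748 CPM for pp4r3a-1 and 0.586, 0.426 and 0.482 CPM for pp4r3a-2, with overlap in each comparison. Its log2 values were 0.88 (edgeR adjusted p 0.0549) in pp4r3a-1 and 0.92 (edgeR adjusted p 0.0484) in pp4r3a-2, and the difference between the mutants, 0.04 with an SE of 0.36, did not pass the test. The pp4r3a-2 call held in 10 of 17 alternatives: it was lost without Col-0 replicate 2 (0.64) or 3 and without any 1 pp4r3a-2 library, and the log2 value reached 1.46 without Col-0 replicate 1. Subunit 3 (ATMG00730) had 47 counts and was not tested.

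Of the ATP synthase members, subunit 1 (ATMG01190), the noted name of the alpha subunit gene of the catalytic F1 part, was called higher in each mutant. It stood at 0.948, 0.975 and 1.16 CPM in the Col-0 replicates, with 2.04, 1.29 and 1.23 CPM for pp4r3a-1 and 1.30, 1.63 and 1.88 CPM for pp4r3a-2. All mutant libraries lay above Col-0, by a small margin for pp4r3a-1 replicate 3. Log2 changes were 0.60 (SE 0.23, edgeR adjusted p 0.0187) and 0.68 (SE 0.23, edgeR adjusted p 0.00822). The pp4r3a-1 call was lost without pp4r3a-1 replicate 1, where the log2 value was 0.30 (edgeR adjusted p 0.28), without Col-0 replicate 1 or 2, and with DESeq2. An F0 subunit locus (ATMG00480) had log2 values of -0.64 (edgeR adjusted p 0.154) and -0.01 (edgeR adjusted p 0.975). The loci noted as subunits 6-1 (ATMG00410) and 9 (ATMG01090) had 72 and 50 counts and were not tested. The unchecked list does not hold ATMG01090 under ATP synthase. It adds ATMG00640, with log2 values of 0.26 and 0.08, and ATMG01170, with 0.51 and 0.74, none past the test. The cytochrome c maturation locus (ATMG00180) had log2 values of -0.03 in each mutant, with an SE of 0.33 in each. Under cytochrome c maturation the unchecked list also puts ATMG00110, with log2 values of 0.16 and 0.12, neither past the test.

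Of the ribosomal protein members, ribosomal protein S4 (ATMG00290), of the small subunit, was higher in each mutant without overlap. It stood at 0.197, 0.156 and 0.257 CPM in the Col-0 replicates, with 0.555, 0.646 and 0.484 CPM for pp4r3a-1 and 0.544, 0.504 and 0.434 CPM for pp4r3a-2. Its log2 changes were 1.46 (SE 0.38, edgeR adjusted p 0.000921) and 1.32 (SE 0.40, edgeR adjusted p 0.00363). A further locus, whose copy is noted only as a nucleic acid-binding, OB-fold-like protein (ATMG00560), stood at 0.197, 0.234 and 0.214 CPM in the Col-0 replicates, with 0.370, 0.646 and 0.660 CPM for pp4r3a-1 and 0.544, 0.581 and 0.772 CPM for pp4r3a-2, again without overlap between either mutant and Col-0. Its log2 changes were 1.34 (SE 0.39, edgeR adjusted p 0.0027) and 1.56 (SE 0.38, edgeR adjusted p 0.000507). Of the other ribosomal protein members, the S12/S23 family locus (ATMG00980) had log2 values of 0.56 and 0.45, neither past the test, and ribosomal protein L5 (ATMG00210), with 44 counts, was not tested. The unchecked list also puts ATMG00080, ATMG00090 and ATMG00560 under ribosomal proteins, each called higher in each mutant as given above. It puts ATMG00520, called higher in pp4r3a-1 alone, under maturase and transport.

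The remaining calls were of loci without a name. ATMG00070 had log2 changes of 1.31 (SE 0.31) in pp4r3a-1 and 0.77 (SE 0.34) in pp4r3a-2, ATMG00510 of 0.89 (SE 0.30) and 0.76 (SE 0.31), and ATMG00580 of 0.95 (SE 0.31) and 0.86 (SE 0.32), with edgeR adjusted p from 0.000278 to 0.0432. Their group means lay between 0.415 and 1.23 CPM. All 3 pp4r3a-2 calls were lost with DESeq2 and without Col-0 replicate 3. Those of ATMG00510 and ATMG00580 were also lost without Col-0 replicate 1, and that of ATMG00510 without pp4r3a-2 replicate 2. ATMG00070 in pp4r3a-2 ran from 0.46 without Col-0 replicate 2 to 1.37 without Col-0 replicate 1, and was not called without Col-0 replicate 2, pp4r3a-1 replicate 3 or pp4r3a-2 replicate 1. Without pp4r3a-2 replicate 3, ATMG00580 had 0.57 in that mutant. ATMG01330 was the 1 locus called lower, in pp4r3a-2 alone, with 0.316, 0.468 and 0.643 CPM in the Col-0 replicates, 0.518, 0.363 and 0.352 CPM for pp4r3a-1 and 0.209, 0.310 and 0.193 CPM for pp4r3a-2. All pp4r3a-2 libraries lay below Col-0. Its log2 change was -0.91 (SE 0.41, edgeR adjusted p 0.047), and it was called in 7 of the 16 alternatives that tested it, leaving aside the one scaled to the members' own counts. Its call was lost without Col-0 replicate 2 or 3 (-0.66 without the latter), pp4r3a-1 replicate 1 or 3, or pp4r3a-2 replicate 1 or 3.

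Counts assigned to introns gave a readout that the choice of members did not use. Of the 14633 intron counts of the members, 99.2% lay in 12 loci with at least 90 each, and 15 members had none. In 11 of these 12 the intron counts exceeded the exon counts. ATMG00090 had 4192 intron and 903 exon counts, ATMG00510 had 1985 and 150, ATMG00160 had 1789 and 212, ATMG00060 had 1655 and 107, and ATMG01320, noted as NADH dehydrogenase 2B, had 1084 and 48. Among all 11189 loci with at least 20 exon and 90 intron counts, 287 (2.57%) had more intron than exon counts. The sources used here do not give the rule by which a read was assigned to an intron, or the intron lengths used.

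The intron share was tested as the change of intron counts against exon counts of the same locus, over 11240 loci. Its exon part is the count by which members were chosen, so a lower share can repeat a rise in exon counts. Most loci of the genome gained intron share in the mutants: 76.9% were called higher and 1.15% lower in pp4r3a-1, with a median log2 change of 0.98, and 69.2% and 1.24% in pp4r3a-2, with a median of 0.86. Of the 12 mitochondrial loci, 0 were called higher in either mutant, with 3 lower in pp4r3a-1 and 5 lower in pp4r3a-2 and median log2 changes of -0.56 and -0.61. At an unadjusted p under 0.05, edgeR had 4 and 6 of them, each in the lower direction, and limma on the log2 ratio also called 0 higher. In an alternative added after the data were seen, the log2 ratios were centred on each library's median over all loci, to measure each locus against the genome-wide shift. Limma then called 9 of the 12 lower in pp4r3a-1 and 10 in pp4r3a-2. Centring subtracts the genome-wide rise by construction, and the share of all loci called lower under it is not given here. These counts are therefore a description only.

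The loci called lower in share were ATMG00090, ATMG00160 and ATMG01320 in each mutant, and ATMG00060 and ATMG00560 in pp4r3a-2. The share of ATMG00160 changed by -0.96 (SE 0.31, edgeR adjusted p 0.00323) in pp4r3a-1 and -1.86 (SE 0.28, edgeR adjusted p 1.06e-09) in pp4r3a-2 on the log2 scale. Its intron counts per 1e6 exon counts of the library were 8.84, 9.20 and 7.71 in the Col-0 replicates, with 9.07, 7.14 and 9.06 for pp4r3a-1 and 7.79, 8.02 and 6.17 for pp4r3a-2, which overlap, while its exon counts rose as given above. ATMG00090 changed in share by -0.88 (SE 0.14, edgeR adjusted p 1.55e-08) and -0.51 (SE 0.16, edgeR adjusted p 0.00322). Its intron counts per 1e6 exon counts were 15.9, 14.97 and 17.05 in the Col-0 replicates, with 24.5, 25.3 and 22.6 for pp4r3a-1 and 16.3, 18.1 and 16.8 for pp4r3a-2. They thus rose clear of Col-0 in pp4r3a-1 and overlapped it in pp4r3a-2. The call of ATMG00060 was lost without pp4r3a-2 replicate 3 (-0.72, edgeR adjusted p 0.117). The share of ATMG01320 rests on 2, 2 and 4 exon counts in the Col-0 libraries, and its call in pp4r3a-1 (-1.31, edgeR adjusted p 0.0341) was lost without pp4r3a-1 replicate 3, where it was -0.73 (edgeR adjusted p 0.336), and without Col-0 replicate 1 or 2. The exon counts of ATMG01320 summed to 8 in Col-0, 19 in pp4r3a-1 and 21 in pp4r3a-2.

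**Figure D4:**
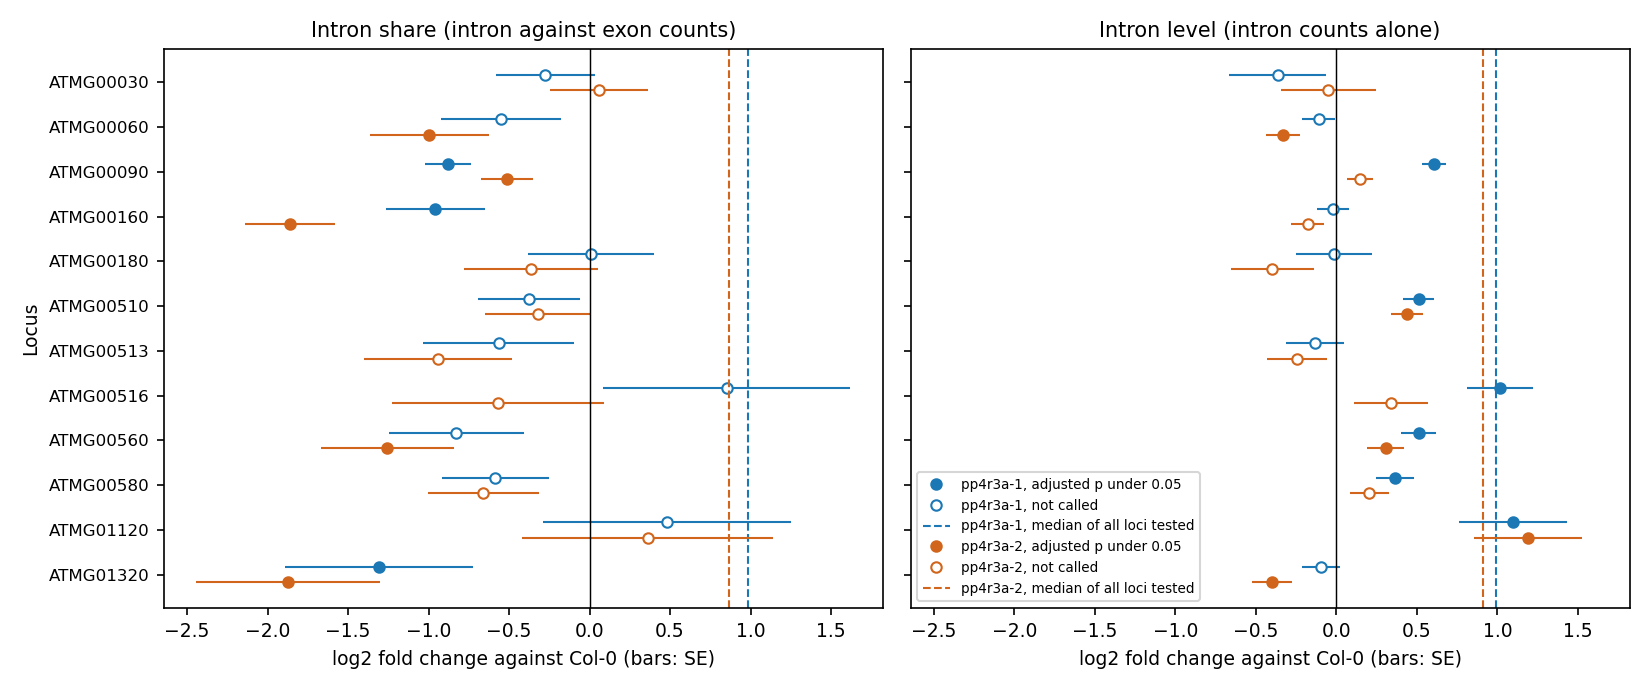
Log2 fold change against Col-0 (x axis; bars, SE) of the intron share (left) and of the intron level (right) of the 12 mitochondrial loci with at least 90 intron counts, in pp4r3a-1 (blue) and pp4r3a-2 (orange), filled where the adjusted p was under 0.05. Dashed lines give the medians of all 11240 loci tested, 0.98 and 0.86 for the share and 0.99 and 0.91 for the level, and most mitochondrial points lie left of them.

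The intron level, the intron counts alone scaled by the exon library sizes, was added after the data were seen. It has no exon count in it for that locus. In pp4r3a-1, 6 of the 12 loci were called higher and 0 lower, against 73.1% and 5.17% of all loci and with a median log2 change of 0.17 against 0.99. In pp4r3a-2, 3 were called higher and 2 lower, against 69.2% and 4.72%, with a median of 0.05 against 0.91. ATMG01120 had 1.10 (SE 0.33, edgeR adjusted p 0.00187) and 1.19 (SE 0.34, edgeR adjusted p 0.000843), ATMG00510 had 0.51 (SE 0.10) and 0.44 (SE 0.10), and ATMG00560 had 0.51 (SE 0.11) and 0.31 (SE 0.11), each called in each mutant, though ATMG00560 was not called in pp4r3a-2 without Col-0 replicate 1 or pp4r3a-2 replicate 3. ATMG00060 fell by 0.33 and ATMG01320 by 0.40 in pp4r3a-2, and both calls rested on single libraries: without pp4r3a-2 replicate 3 the former had -0.21 (edgeR adjusted p 0.0872), and without pp4r3a-2 replicate 1 the latter had -0.27 (edgeR adjusted p 0.0735). Between the mutants, 2 loci were lower in pp4r3a-2, ATMG00090 by -0.46 (edgeR adjusted p 1.57e-07) and ATMG00516 by -0.68 (edgeR adjusted p 0.00606), and 0 were higher, against 11.4% and 7.69% of all loci. The ATMG00516 difference was not called without pp4r3a-1 replicate 3, pp4r3a-2 replicate 2 or pp4r3a-2 replicate 1 (-0.42, edgeR adjusted p 0.177), and was -1.08 without pp4r3a-2 replicate 3. In share, ATMG00160 was lower in pp4r3a-2 than in pp4r3a-1 by -0.90 (SE 0.25, edgeR adjusted p 0.007), which was lost without pp4r3a-2 replicate 3, and 0 of the 12 loci were higher, against 6.66% lower and 1.48% higher over all loci.

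The summed intron counts of the members per 1e6 exon counts were 61.5 ± 0.440 in Col-0, 76.1 ± 4.21 in pp4r3a-1 and 62.0 ± 3.64 in pp4r3a-2. All pp4r3a-1 libraries lay above Col-0, and pp4r3a-2 overlapped it. Over whole libraries, intron counts were 2.10 ± 0.0495% of exon counts in Col-0, 3.23 ± 0.111% in pp4r3a-1 and 3.04 ± 0.0399% in pp4r3a-2.

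Nuclear copies of mitochondrial DNA limit how these counts can be assigned. The annotation notes a copy on chromosome 2 for 21 members, and 14 of these copies held more exon counts than the mitochondrial locus itself. AT2G07698, the copy of the ATP synthase subunit 1 locus, had 930 counts against 303, AT2G07718, the copy of ATMG00590, had 478 against 75, AT2G07715, the copy of ATMG00560, had 472 against 101, and AT2G07727, the copy of apocytochrome b, had 313 against 98. The sources used here do not give how reads matching both were treated, so the split between a member and its copy is uncertain. The noted copies together stood at 11.4 ± 0.869 CPM for Col-0, 17.8 ± 1.10 CPM for pp4r3a-1 and 17.7 ± 2.33 CPM for pp4r3a-2, with no overlap between either mutant and Col-0. Of the 21 copies 11 were tested, and 5 were called higher in pp4r3a-1 and 7 in pp4r3a-2, with 0 lower, against the 36.3% and 35.6% higher over all genes. Among the 4 with the highest mean CPM, AT2G07698 had log2 changes of 0.75 (SE 0.14) and 0.81 (SE 0.14), AT2G07715 of 0.89 (SE 0.17) and 0.60 (SE 0.18), AT2G07718 of 0.54 (SE 0.17) and 0.52 (SE 0.18), and AT2G07727 of 1.01 (SE 0.23) and 0.91 (SE 0.23), each called higher in each mutant (edgeR adjusted p from 2.44e-06 to 0.00963). No copy is noted for ATMG00080, ATMG00090, ATMG00160 or ATMG01360, but a missing note does not show that no nuclear copy exists, so their counts may be shared too.

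Nuclear genes for mitochondrial proteins were read from the same fit. In a list of the mitochondrial stress response, 9 of 11 genes were tested and all 9 were called higher in each mutant, with median log2 changes of 1.999 and 2.144. AOX1A (AT3G22370), the alternative oxidase that passes electrons from ubiquinol to oxygen without the cytochrome chain, stood at 29.6 ± 0.672 CPM for Col-0, 175 ± 4.09 CPM for pp4r3a-1 and 142 ± 7.53 CPM for pp4r3a-2, with log2 changes of 2.57 (SE 0.04) and 2.31 (SE 0.04). NDB2 (AT4G05020), a type II NAD(P)H dehydrogenase of the inner membrane, changed by 2.04 and 1.52, and NAC13 (AT1G32870), a transcription factor of the mitochondrial retrograde response, by 2.27 and 2.13. AT5G51440, annotated as an HSP20-like chaperone, changed by 1.97 and 2.23. The edgeR adjusted p of these 4 genes lay between 7.53e-35 and 2.25e-25 in all 8 tests.

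In a list of 28 nuclear genes of respiratory complexes I to V, 21 were called higher and 2 lower in pp4r3a-1, and 21 higher and 3 lower in pp4r3a-2, with median log2 changes of 0.33 and 0.22. The iron-sulfur subunit of complex II, SDH2-1 (AT3G27380), changed by 0.76 (SE 0.04) and 0.78 (SE 0.04), the Rieske iron-sulfur subunit genes of complex III, AT5G13440 and AT5G13430, by 0.68 and 0.53 and by 0.66 and 0.48, and AT5G08680, annotated as an ATP synthase alpha/beta family protein, by 0.71 and 0.52. The complex I subunit gene FRO1 (AT5G67590), chosen after its values were seen, fell by 0.28 and 0.29. Of 26 nuclear genes for mitochondrial RNA and DNA factors, 8 were called higher and 8 lower in pp4r3a-1, and 8 higher and 9 lower in pp4r3a-2, with median log2 changes of -0.02 and -0.03. The DEAD-box RNA helicases of mitochondria PMH1 (AT3G22310) and PMH2 (AT3G22330) changed by 1.08 and 0.74 and by 0.63 and 0.56, RIP1 (AT3G15000), an RNA editing factor, by 0.87 and 0.61, and AT5G15700, annotated in the DNA/RNA polymerase superfamily, by 0.83 and 0.85. The maturase gene nMAT1 (AT1G30010), chosen after its values were seen, fell by 0.36 and 0.66. These shares are read against the 36.3% and 36.1% of all genes called higher and lower in pp4r3a-1, and the 35.6% and 35.8% so called in pp4r3a-2.

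**Figure D5:**
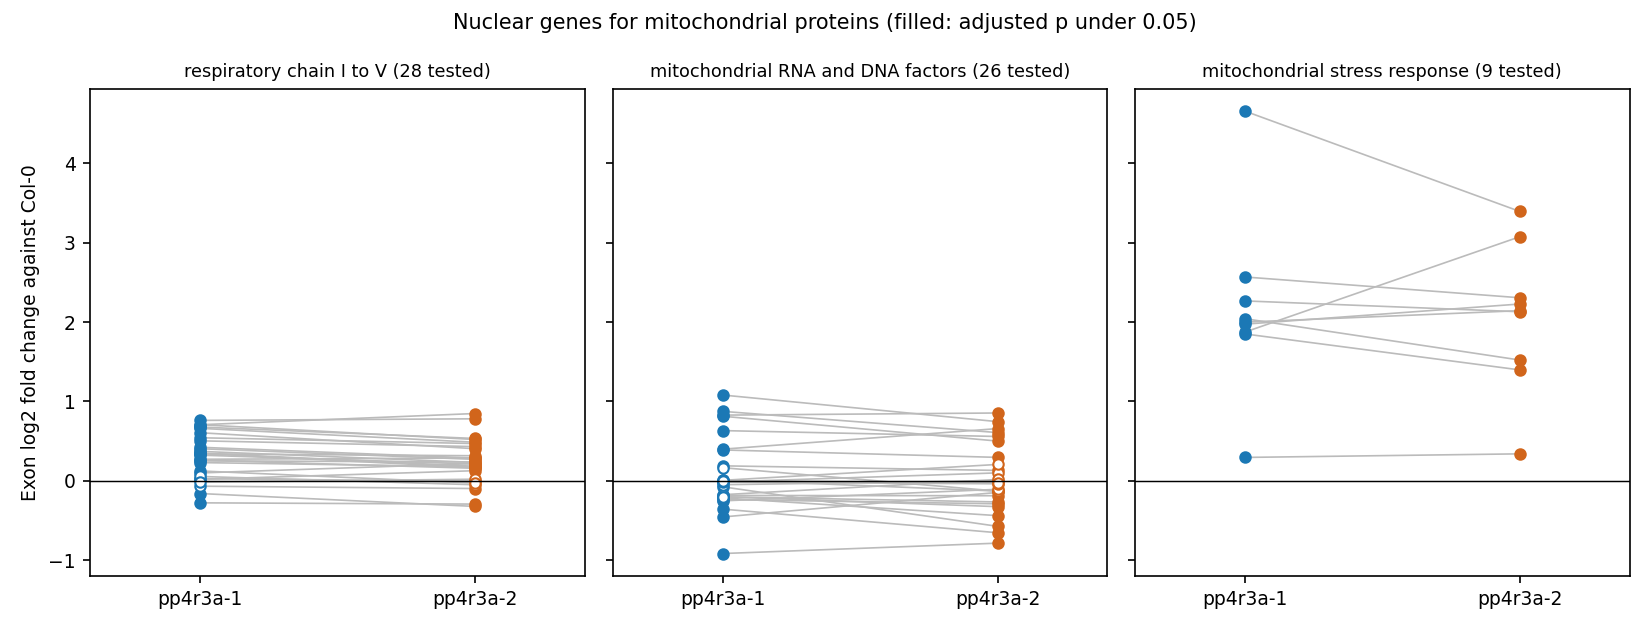
Exon log2 fold change against Col-0 (y axis) of nuclear genes for mitochondrial proteins in 3 lists, with a grey line joining the values of a gene in pp4r3a-1 and pp4r3a-2 and filled points where the adjusted p was under 0.05. All 9 tested stress response genes lie above 0 in each mutant, while the 26 RNA and DNA factors lie on both sides of 0.

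Markers of other compartments moved as follows. Of 73 tested chloroplast-encoded genes, 52 were called higher and 1 lower in pp4r3a-1, and 32 higher and 5 lower in pp4r3a-2. With pp4r3a-1 first, their median log2 changes were 0.78 and 0.50, beside 0.50 and 0.56 over the tested mitochondrial members. A higher median than that of all genes was thus not particular to the members, and a link between the 2 sets was not tested. Of all genes tested, in that order, 36.3% and 35.6% were called higher, and 36.1% and 35.8% lower. Of 6 shoot markers, 3 were called higher and 3 lower in pp4r3a-1, and 3 higher and 2 lower in pp4r3a-2, and their summed level was 36801 to 38204 CPM in Col-0, 34618 to 36755 CPM in pp4r3a-1 and 39121 to 40755 CPM in pp4r3a-2. Of 6 root markers, 4 were called higher and 1 lower in pp4r3a-1, and 2 higher and 4 lower in pp4r3a-2, with summed levels of 2395 to 2441 CPM, 2385 to 2522 CPM and 2398 to 2484 CPM. None of the 12 markers was at 0 in any group mean, and the part of their balance in the mitochondrial values was not tested.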

How the data were processed

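Polyadenylated RNA of 9 libraries was analysed. Per the labels' protocols, RNA was extracted with TRIzol, poly(A)-selected and made into libraries with a NEBNext mRNA kit. Per the file headers, the authors deposited for each library an exon count and an intron count per locus, which are whole numbers. STAR was the aligner, without a version, per the submitters' processing notes. Not given in the sources used here are the genome build, gene models, counting program, strand setting, treatment of reads with several matches and intron rule. No coordinates, lengths or sequences are therefore printed, counts of different loci are set side by side as read counts and not as expression levels, and overlap between loci could not be checked. Labels name the replicates by number, and p-values measure the spread between these samples.

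Members, gene lists and comparisons were chosen with earlier results of these data known. Identifiers were paired with names through notes in the TAIR10.1 annotation (RefSeq), and members without such a note got no name. Roles from the unchecked list are cited for some members and entered no grouping or count. Named were members of a functional group, of the other members the 6 with the highest mean CPM and up to 4 called per comparison and direction, up to 4 genes per nuclear list by smallest p, and the 4 copies with the highest mean CPM. FRO1, nMAT1, ATMG00070, ATMG00110, ATMG00513, ATMG00580, ATMG00640, ATMG00690 and ATMG01170 fall outside this rule and were chosen after their values were seen.

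CPM is the count over the library's total exon count times 1e6. Exon counts of all 9 libraries were fitted together in edgeR 4.0.16 (filterByExpr, TMM, robust quasi-likelihood, 1 mean per genotype, two-sided tests, Benjamini-Hochberg over all genes tested). The SE is the absolute log2 change over the square root of F. For the intron share, exon and intron counts of loci with at least 90 intron counts were fitted in 1 model with a term per library. The intron level used intron counts alone and was added after the data were seen. Alternatives were other scalings, filters, DESeq2 1.42.0, voom and limma 3.58.1, the replicate number as a block, fits of 2 groups and leaving out each library. Replicates of a genotype differed by more than counting noise, so none was taken as a copy of another. On simulated data for pp4r3a-1 against Col-0, edgeR recovered 178 of 200 changes of 2-fold among 22424 genes, with 9 of 187 calls false, and 77 of 100 for the intron share and 83 of 100 for the intron level among 11239 loci. The exon simulation gave every gene and library the same fixed spread beyond counting noise, which the real libraries did not have. Its rates check that the code ran and do not describe the members, most of which had a mean under 1 CPM. Tables and plots were made in R 4.3.3 and in Python 3.11.15 with matplotlib 3.10.9, numpy 2.4.6 and pandas 2.3.3.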

Additional observations from a re-analysis of the deposited data

How the results depend on the processing

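Depth limits most the 40 of 49 loci with a mean under 1 CPM, where the floor of 3 counts equalled 0.111 to 0.145 CPM. Over 19 alternatives and 3 comparisons, 1532 of 1633 values of single loci stayed called or stayed uncalled. Of the others, 76 lost the call and 25 gained it, and 0 called values turned sign. The 1532 include 73 uncalled values that turned sign, so they did not all keep direction. The cause was not tested unless named.

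For exon counts in pp4r3a-1 against Col-0, 12 higher calls became 4 with scaling to the members' summed counts and 7 with at least 1 CPM in 3 libraries, which left 11 members to test. Leaving out libraries gave 11 to 14. The 0 lower calls became 1 by library size only, by scaling to the members' sum and with the replicate block, and 0 to 1 on leaving out libraries. For pp4r3a-2, 12 higher calls became 7 at an adjusted p under 0.01, 2 with scaling to the members' sum, 6 with the 1 CPM filter and 7 with DESeq2, and 7 to 16 on leaving out libraries (16 without pp4r3a-2 replicate 1, 7 without replicate 3). The 1 lower call became 0 at an adjusted p under 0.01, without a filter, with the 1 CPM filter, with DESeq2, with the replicate block and with only the 2 groups fitted, and 0 to 1 on leaving out libraries. Between the mutants, scaling to the members' sum gave 0 higher and 1 lower, and leaving out libraries gave 0 to 2 higher and 1 to 6 lower. That scaling moved the median of all genes by -0.39 in pp4r3a-1 and -0.34 in pp4r3a-2. In it the tested members' medians were 0.12 and 0.19. It called ATMG00070, ATMG00080, ATMG00090 and ATMG00520 higher in pp4r3a-1 and ATMG00160 and ATMG00560 in pp4r3a-2.

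The labels state no pairing by replicate number, and same-numbered deviations correlated between -0.041 and 0.031. This shows no shared effect of the number, but cannot exclude that same-numbered samples were handled together. Besides the lower calls given, the replicate block ended the difference of ATMG00660 between the mutants.

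For the intron share, limma on the log2 ratio gave 5 lower in pp4r3a-1 and 0 between the mutants. Centred on each library's median, which was added after seeing the data and by construction takes out the genome-wide rise, it gave 9 and 10 lower against Col-0 and 0 between the mutants, and turned ATMG00030 in pp4r3a-2 from 0.06 to -0.84. At least 450 intron counts gave 1 higher between the mutants. Leaving out libraries gave 2 to 4 lower in pp4r3a-1, 4 to 6 in pp4r3a-2, and 0 to 1 higher and 0 to 1 lower between the mutants. The intron level gave 2 to 5 higher and 1 to 3 lower in pp4r3a-2, and 1 to 3 lower between the mutants.

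The members' share of exon counts (0.0242%, 0.0315% and 0.0312% in Col-0, pp4r3a-1 and pp4r3a-2) was 0.00339%, 0.00454% and 0.00411% without the 2 loci with the most counts, 0.0140%, 0.0172% and 0.0176% without ATMG00020 and 0.000465%, 0.000632% and 0.000654% for members with a named role, by construction lower. Without single libraries it was 0.0257% to 0.0350% in pp4r3a-2. With scaling to the members' sum, whose spread in pp4r3a-2 is wide, higher calls became 0 and 0 in the respiratory chain, 1 and 0 in the RNA and DNA factors, 1 and 1 in the shoot and 1 and 1 in the root markers, and lower calls of shoot markers in pp4r3a-2 became 0. DESeq2 gave 4 lower RNA and DNA factors in pp4r3a-1, and leaving out libraries gave 1 to 2 lower shoot markers in pp4r3a-2.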
